A study of Bos taurus with 18 samples.

Results

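Fibrillar collagens and the enzymes that process them were followed across 3 cell populations of bovine preovulatory follicles, before and after the surge of luteinising hormone (LH). The genes were taken by symbol from the platform's probe table, as COL1A1, COL1A2, COL3A1, COL5A1, COL5A2, COL12A1, LOX, LOXL4 and P4HA3. Of these 9 genes, 8 had a probe set and COL5A1 had none. They were read by 13 probe sets, of 24016 tested, and by 8 of the 9155 genes that the table names. Where a gene had several, the brightest on average stands for it.

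The single dominant follicle was taken from each of 6 cows. In cows D, F and G this was done before the LH surge, and in cows A, B and C at 22 h after GnRH, the hypothalamic hormone given to set off that surge. From each follicle 3 RNA samples were hybridised: membrane-associated granulosa, the layer left on the follicle wall; antral granulosa, aspirated with the fluid; and theca, the vascular layer outside the granulosa. This gave 18 Affymetrix arrays in 6 groups of 3 cows, with breed and age not given in the labels. LH effects therefore compare different cows, while populations are compared within the same cows. Values are log2 signals, so that a difference of 1 is a doubling, and levels of different genes are not compared with each other.

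Fibrillar collagen is made as procollagen, whose prolines are hydroxylated by prolyl 4-hydroxylase so that the chains form a stable triple helix. After secretion its ends are cut off, the molecules assemble into fibrils, and lysyl oxidases start the cross-links between them. In the follicle, fibrillar collagen is best known from the theca and the surrounding stroma, and the follicle wall is remodelled for ovulation.

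The populations before LH were checked against defining markers. FSHR, the receptor of granulosa cells for follicle-stimulating hormone, had a mean of 8.20 in membrane granulosa and 4.88 in theca before LH. CYP17A1, the androgen-making enzyme of theca cells, had a mean of 11.75 in theca, 8.05 in membrane granulosa and 5.55 in antral granulosa before LH. On the membrane granulosa arrays before LH it ran from 4.90 to 10.42 between cows. Theca before LH in turn read 10.29 on average for CYP19A1, the aromatase of granulosa cells, against 13.73 in membrane granulosa. Of 8 listed theca cell markers 6 were measured. Before LH 3 of the 6 were higher and 1 lower in theca than in membrane granulosa at an adjusted p under 0.05 (limma). After LH 1 was higher. The shares of all probe sets higher in theca were 15.4% and 11.4%. CYP17A1 had a mean of 5.485 in theca after LH, so it does not mark the later theca arrays. Arrays of a group correlated at 0.970 to 0.990 over all probe sets, and no arrays were identical. In such bulk samples, fewer cells of a type and less RNA per cell cannot be told apart.

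**Figure D1:**
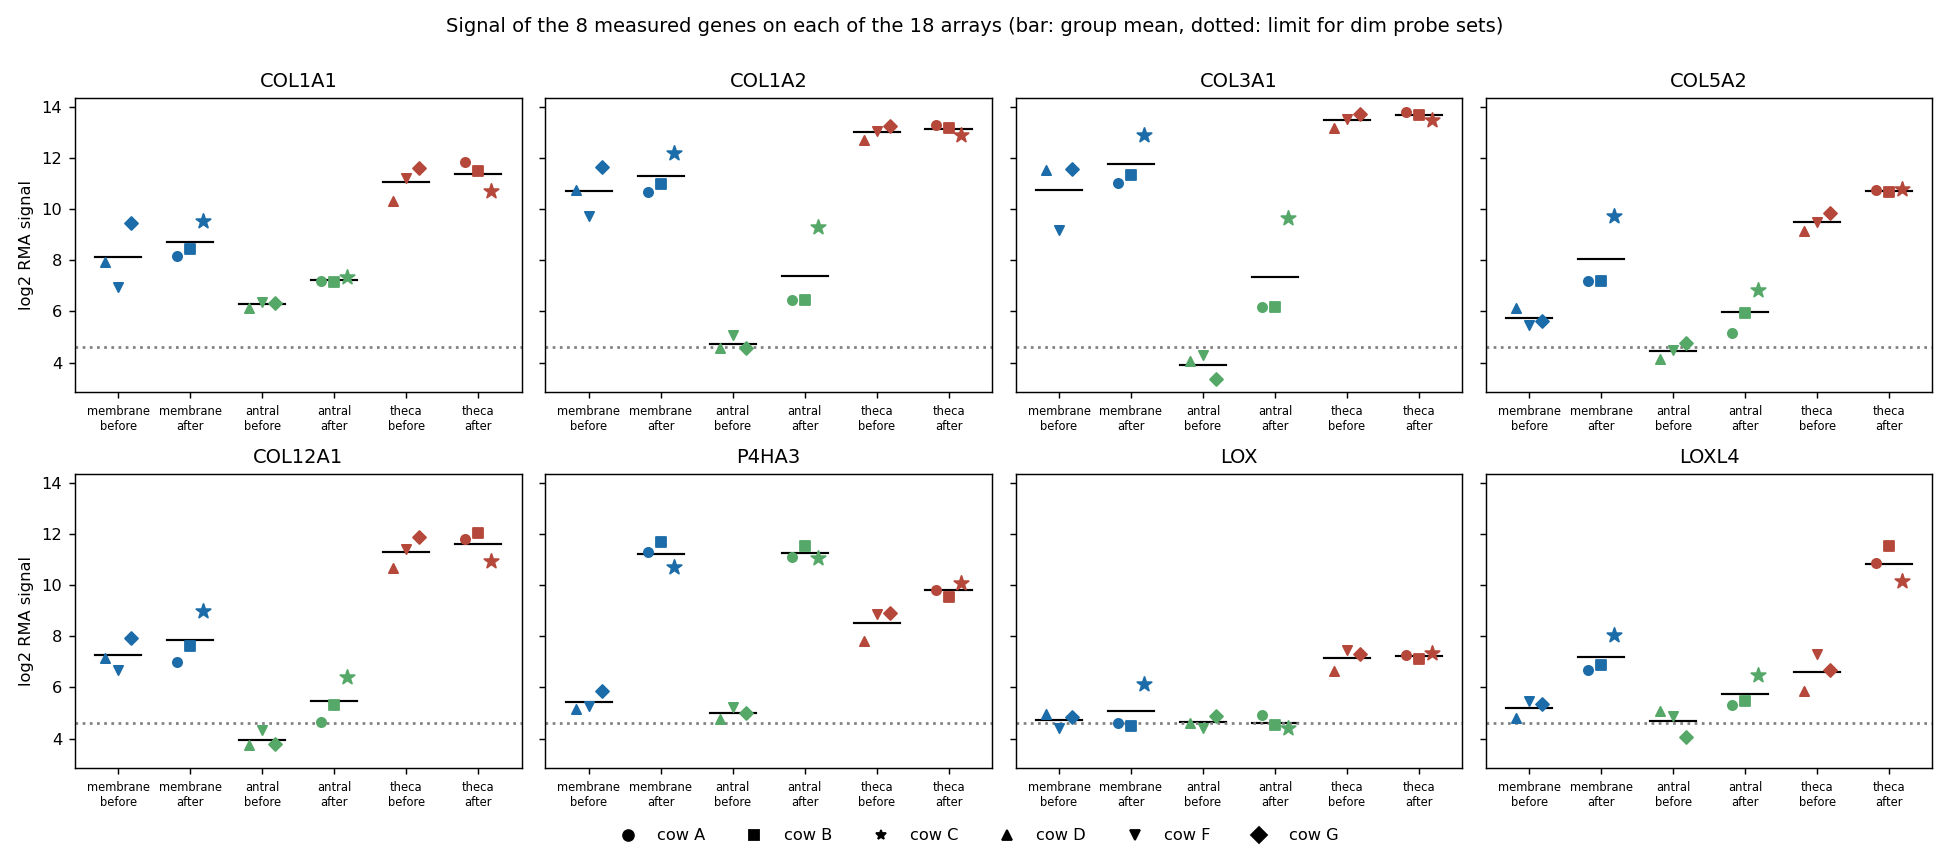
Log2 RMA signal (y axis) of the 8 measured genes on each of the 18 arrays, by population and time (x axis), with a symbol per cow, a bar at the group mean and a dotted line at 4.62, below which 33.33% of all probe set means lie. The 5 collagens and LOX stood highest in theca at both times, P4HA3 in granulosa after LH, and LOXL4 in theca after LH.

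Before LH, all 8 genes were higher in theca than in membrane granulosa of the same follicles, in 3 of 3 cows each. The groups did not overlap for 8 of 8 genes, against 41.6% of all probe sets. The differences ran from 1.42 ± 0.45 (standard error, n = 3 cows) for LOXL4 to 4.07 ± 0.48 for COL12A1. By limma with the cow as a block and Benjamini-Hochberg adjustment over all probe sets, the adjusted p ran from 4.81e-06 for P4HA3 to 0.0267 for LOXL4. In the same comparison 15.4% of all probe sets were called higher in theca at an adjusted p under 0.05. The median difference was 2.83 over the 8 genes and -0.07 over all probe sets. Without cow F, 5 of the 8 calls were left: those of COL1A2 (adjusted p = 0.0581), COL3A1 (0.0771) and LOXL4 (0.166) ended. The LOXL4 call also ended without cow G (0.0846).

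COL3A1, the single chain of type III collagen, covered a wide range. In theca before LH its signal was 13.17, 13.54 and 13.75 in cows D, F and G. In membrane granulosa it was 11.53, 9.18 and 11.57, and in antral granulosa 4.07, 4.31 and 3.36. The 3 populations did not overlap, and all antral arrays lay below 4.62, the value under which 33.33% of probe set means fall. Where all arrays of a group lie below that limit, the other group's mean less the limit is given as a lower bound. Theca exceeded antral granulosa by at least 8.86 (adjusted p = 1.07e-06, limma).

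COL1A2, which joins the COL1A1 chain in type I collagen, had the same order of populations. Its signal in cows D, F and G was 12.71, 13.07 and 13.26 in theca, 10.77, 9.74 and 11.66 in membrane granulosa, and 4.55, 5.08 and 4.57 in antral granulosa. Theca was higher than antral granulosa by 8.28 ± 0.54 (adjusted p = 5.53e-07, limma). Of the antral arrays 2 of 3 lay below 4.62, and all 3 did for the second COL1A2 probe set, so sizes against this group rest partly on dim values. COL1A1 spread less, with 10.32, 11.23 and 11.63 in theca, 7.93, 6.97 and 9.48 in membrane granulosa and 6.13, 6.38 and 6.32 in antral granulosa, and its theca excess over antral granulosa was 4.78 ± 0.47. In all, 8 of 8 genes were called higher in theca than in antral granulosa before LH, where 14.9% of all probe sets were, and the groups did not overlap for 8 of 8, against 46.3%. Without cow F or G the smallest of these differences, 1.95 ± 0.45 for LOXL4, was no longer called (adjusted p = 0.0562 and 0.0558).

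Antral and membrane granulosa are the same cell type by their labels, and several collagens separated them. Before LH, antral less membrane granulosa was -5.995 ± 0.54 for COL1A2 (adjusted p = 0.000513, limma). COL3A1 was lower in antral granulosa by at least 6.14 (adjusted p = 0.000643) and COL12A1 by at least 2.63 (adjusted p = 0.00738). These were 3 of 8 genes, where 1.09% of all probe sets were called lower. The groups did not overlap for 5 of 8 genes, against 18.4% of all probe sets. COL1A1 differed by -1.85 ± 0.47 (adjusted p = 0.0641) and COL5A2 by -1.28 ± 0.40 (adjusted p = 0.122), neither of which passed. The COL5A2 size rests partly on dim values, as 2 of its 3 antral arrays lay below 4.62. The 95% interval of the difference was -0.97 to 0.12 for P4HA3, -0.80 to 0.64 for LOX and -1.51 to 0.44 for LOXL4. The COL12A1 call ended without cow D (adjusted p = 0.0766) or cow G (0.063). Without cow C the count was 5, since COL1A1 (0.0449) and COL5A2 (0.0296) were then called. Cow C has no array before LH, so the differences stayed the same and only the spread shared by all arrays changed. COL1A1 was also called without cow F (0.0427).

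Fibroblast markers, taken as a list, had the same order of populations. The mean log2 signal of all 12 listed markers was 8.34 to 9.03 in theca, 6.25 to 6.94 in membrane granulosa and 5.45 to 5.55 in antral granulosa before LH. For the 9 measured of 10 smooth muscle and pericyte markers it was 9.13 to 9.79, 6.39 to 7.42 and 5.51 to 5.59. For the 6 measured of 8 theca cell markers it was 8.71 to 9.24, 6.825 to 8.516 and 6.53 to 6.67. Single fibroblast markers did not all follow this order. Between theca and membrane granulosa before LH 8 of 12 were called higher in theca and THY1 lower (7.59 against 8.61), and TCF21 had a mean of 7.55 in antral and 7.25 in membrane granulosa. Between antral and membrane granulosa before LH, 3 of 12 fibroblast markers were called lower and none higher: OGN at -4.38 (adjusted p = 0.000513, limma), DCN at -3.18 (0.00579) and LUM at -1.58 (0.0402). All 3 encode small leucine-rich proteoglycans of collagenous matrix. Within membrane granulosa before LH, cow F had the lowest COL3A1 and also the lowest mean of fibroblast markers, 6.25 against 6.94 in cow D and 6.93 in cow G. Cow F was lowest there for theca cell markers too, at 6.825 against 8.516 and 8.085. The same held for smooth muscle (6.39 against 7.19 and 7.42) and endothelium (4.30 against 4.84 and 4.90). Leukocyte markers were highest in cow F, at 5.90 against 5.41 and 5.33. The part of these cell types in the collagen differences was not tested.

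**Figure D2:**
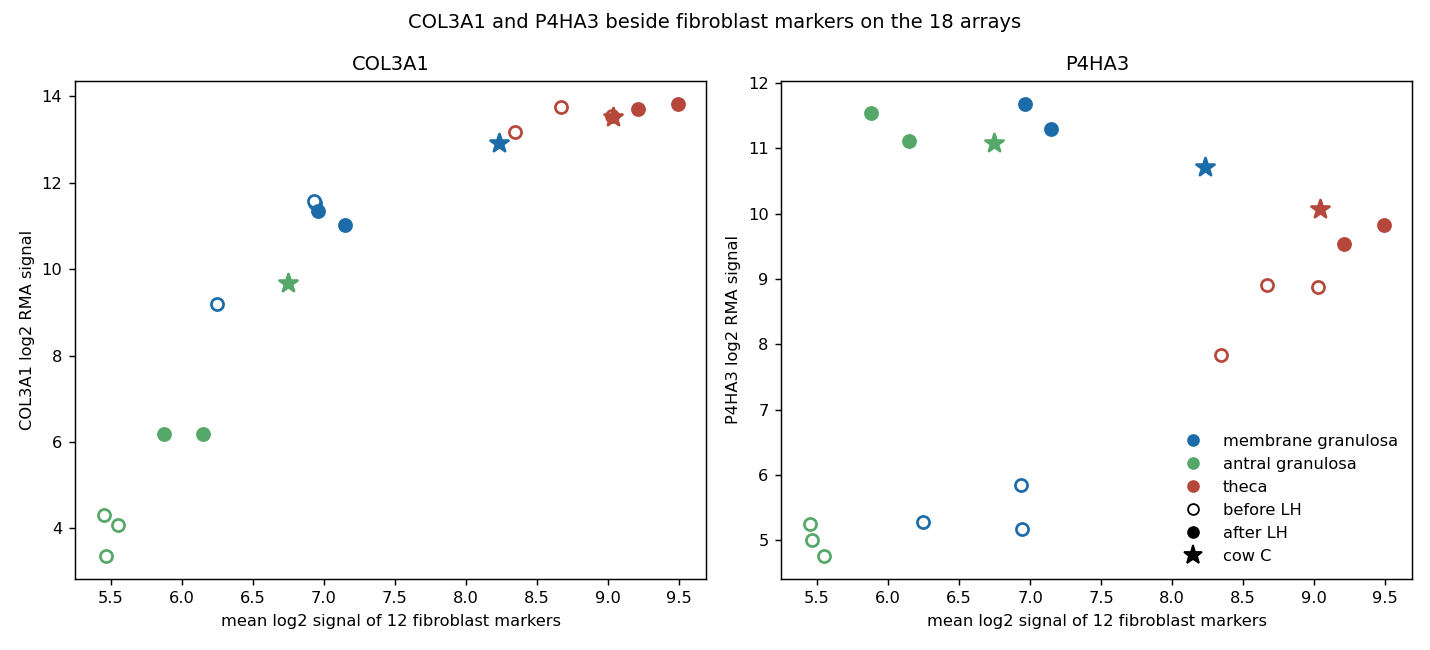
Log2 signal of COL3A1 (left) and P4HA3 (right) on the y axis against the mean log2 signal of 12 fibroblast markers on the x axis, 1 point per array, with colours for populations, open points before LH, filled points after LH and stars for cow C. COL3A1 was lowest on the antral arrays before LH, where the marker mean was 5.45 to 5.55, while P4HA3 stood between 10.72 and 11.69 on the 6 granulosa arrays after LH at marker means from 5.88 to 8.23.

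After LH, 6 of the 8 genes were called higher in theca than in membrane granulosa, where 11.4% of all probe sets were, and P4HA3 was called lower, as were 14.4%. The groups did not overlap for 8 of 8 genes, against 32.4% of all probe sets. COL12A1 differed most, by 3.74 ± 0.48 (adjusted p = 0.000229, limma), followed by LOXL4 with 3.64 ± 0.45 (adjusted p = 0.000186). COL3A1 did not pass, with 1.92 ± 0.68 (adjusted p = 0.0584), although its second probe set did (2.17 ± 0.61, adjusted p = 0.0191). Without cow C COL3A1 was called, at 2.58 (0.0112). It was called without cow F too (0.0365), which has no array after LH, so that only the shared spread changed. The COL1A2 difference of 1.85 ± 0.54 (adjusted p = 0.0234) was lost without cow A (0.195) or cow B (0.146). Against antral granulosa after LH, 7 genes were higher in theca, with 15.7% of all probe sets, and P4HA3 was lower, with 20.5%. The groups did not overlap for 8 of 8 genes there either, against 41.9%. The 5 collagens exceeded antral granulosa there by 4.13 ± 0.47 for COL1A1 to 6.34 ± 0.68 for COL3A1.

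Between the granulosa populations after LH, 4 of 8 genes were lower in antral granulosa, where 1.57% of all probe sets were. The groups did not overlap for 6 of 8, against 22.9% of all probe sets. COL3A1 differed by -4.42 ± 0.68 (adjusted p = 0.0146, limma), COL1A2 by -3.89 ± 0.54 (0.0132), COL12A1 by -2.41 ± 0.48 (0.0288) and COL5A2 by -2.06 ± 0.40 (0.0277), in the same direction in each of the 3 cows. No call was left without cow A (adjusted p from 0.152 to 0.208) or without cow B (0.115 to 0.162). Over all probe sets the calls in either direction went from 721 to 5 without cow A and to 0 without cow B. P4HA3 differed by 0.01 ± 0.25, with a 95% interval of -0.53 to 0.56.

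**Figure D3:**
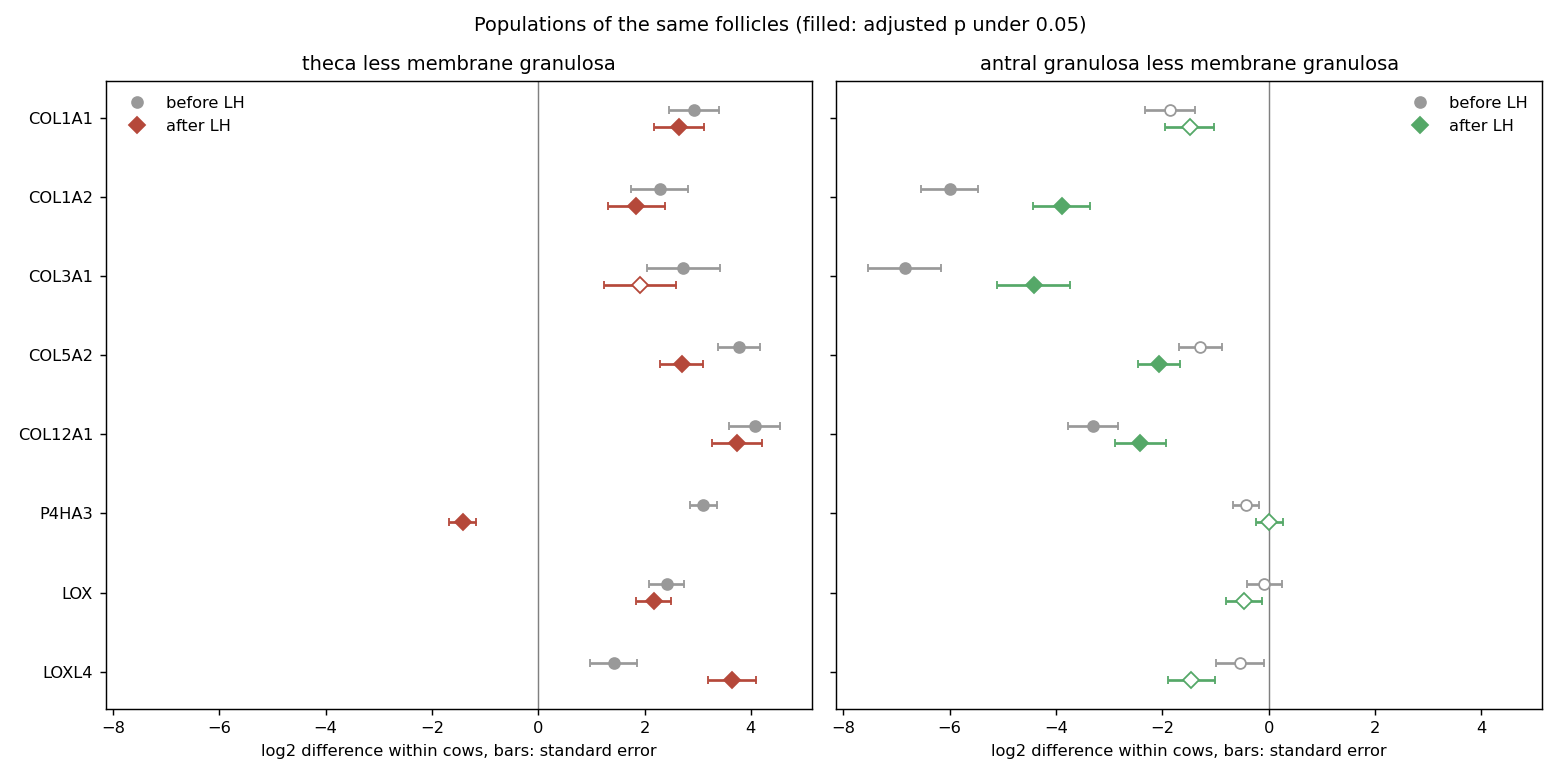
Log2 difference within cows (x axis) of theca less membrane granulosa (left) and antral less membrane granulosa (right) for the 8 genes (y axis), before and after LH, with bars of 1 standard error and filled points at an adjusted p under 0.05. P4HA3 lay at 3.11 before LH and at -1.42 after LH in the left panel, and COL3A1 lay farthest from 0 in the right panel, where its fitted value before LH rests on antral arrays below 4.62.

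Of the collagens, COL3A1 and COL1A2 were called higher after LH in antral granulosa. After LH, COL3A1 in antral granulosa was 6.18, 6.19 and 9.67 in cows A, B and C, against 4.07, 4.31 and 3.36 before. Cow C stood well above both other cows, and the times did not overlap. COL3A1 was higher by at least 2.72 (adjusted p = 0.00526, limma), and its second probe set by at least 2.49 (0.00502). COL1A2 was 6.46, 6.44 and 9.32 in the same cows after LH, higher by 2.67 ± 0.64 (adjusted p = 0.0059, limma). Before LH 2 of its 3 antral arrays lay below 4.62, so that size rests partly on dim values. Without cow C both calls held, at least 1.56 (adjusted p = 0.0085) for COL3A1 and 1.72 (0.00636) for COL1A2, each more than 1.5 times smaller than with all cows. With P4HA3 these were 3 of 8 genes called higher in antral granulosa, where 10.3% of all probe sets were. The groups did not overlap for 7 of 8 genes, against 36.7% of all probe sets.

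COL1A1 in antral granulosa was 7.20, 7.16 and 7.36 after LH, above all arrays before LH, a difference of 0.96 ± 0.51 (adjusted p = 0.214, limma). That error pools the spread of all 6 groups. With only the antral arrays fitted it was 0.136, and COL1A1 was called higher (adjusted p = 0.00225, limma). COL12A1, a collagen of fibril surfaces, was 4.63, 5.33 and 6.43 after LH against 3.76, 4.32 and 3.78 before, higher by at least 0.84 (adjusted p = 0.0514). COL5A2, a chain of the type V collagen of fibril cores, was 5.16, 5.96 and 6.84 against 4.15, 4.48 and 4.75, a difference of 1.52 ± 0.53 (adjusted p = 0.0529). Of its antral arrays before LH 2 of 3 lay below 4.62, so this size rests partly on dim values. Neither COL12A1 nor COL5A2 passed. Both were called without cow A (0.0259 and 0.031), and COL5A2 also without cow C, at 1.10 (0.00985). With only the antral arrays fitted, both were called as well (0.0423 and 0.032).

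In antral granulosa the fibroblast marker mean was 5.45 to 5.55 before LH and 5.88 to 6.75 after LH, highest in cow C. Of the 12 markers 3 were called higher after LH in that population, FBLN1, MFAP5 and DCN, and TCF21 was called lower, where 10.3% of all probe sets were called higher and 12.2% lower. Of the 12, 5 lay below 4.62 on all antral arrays before LH and 3 after LH. Smooth muscle and endothelial marker means were also highest in cow C on the antral arrays after LH. Theca cell and leukocyte means of cow C lay between those of cows A and B, and its granulosa cell mean was the lowest. Whether cells of these types had a part in the LH differences of COL1A2 and COL3A1 was not tested.

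In membrane granulosa COL5A2 was the collagen called after LH. Its signal was 6.12, 5.48 and 5.63 before LH in cows D, F and G and 7.20, 7.19 and 9.74 after LH in cows A, B and C. Cow C was highest, and the times did not overlap. The difference was 2.30 ± 0.53 (adjusted p = 0.00552, limma), and 1.45 (0.00167) without cow C, more than 1.5 times smaller. With P4HA3 and LOXL4 it made 3 of 8 genes called higher in membrane granulosa, where 10.0% of all probe sets were. These were also the 3 whose groups did not overlap, against 34.5% of all probe sets. COL1A1 (0.60 ± 0.51), COL1A2 (0.57 ± 0.64), COL3A1 (1.01 ± 0.80) and COL12A1 (0.62 ± 0.53) did not pass, and their groups overlapped. Cow C carried the highest value of the 5 collagens in membrane granulosa after LH, 12.92 for COL3A1 against 11.03 and 11.35 in cows A and B. Its fibroblast marker mean there was 8.23, while cows A and B had 7.14 and 6.96, and its smooth muscle mean 7.53 against 6.41 and 6.56. Endothelium (5.56 against 4.55 and 4.80) and leukocytes (6.27 against 5.52 and 6.08) were highest in cow C too. Its theca cell mean was 6.66 against 6.59 and 6.80, and its granulosa cell mean was the lowest, 8.56 against 9.28 and 9.51. The part of these cell types was not tested.

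In theca no collagen was called after LH. COL3A1 was 13.83, 13.71 and 13.52 in cows A, B and C, a difference of 0.20 ± 0.80 with a 95% interval of -1.51 to 1.91. For COL1A2 the interval was -1.23 to 1.48, for COL1A1 -0.78 to 1.40 and for COL12A1 -0.83 to 1.41. Changes within these bounds were not resolved by this fit, which shares its spread over all 6 groups. The COL3A1 arrays of theca themselves had an SD of 0.29 before and 0.16 after LH. COL1A1, COL1A2, COL3A1 and COL12A1 were not called in theca under any alternative. COL5A2 was 10.74, 10.68 and 10.80 after LH against 9.16, 9.52 and 9.88 before. These groups did not overlap, with a difference of 1.22 ± 0.53 (adjusted p = 0.28, limma). COL5A2 was called without cow C, at 1.19 (0.0258), and with only the theca arrays fitted, at 1.22 ± 0.19 (0.0306). Of the 8 genes 2 were called higher in theca, P4HA3 and LOXL4, where 1.79% of all probe sets were. With COL5A2 they were the 3 of 8 whose groups did not overlap, against 20.4% of all probe sets.

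P4HA3 encodes a catalytic alpha subunit of prolyl 4-hydroxylase. In membrane granulosa it was 5.17, 5.28 and 5.85 before LH and 11.30, 11.69 and 10.72 after LH. In antral granulosa it was 4.76, 5.25 and 5.01 before and 11.12, 11.54 and 11.09 after. In theca it was 7.83, 8.88 and 8.91 before and 9.84, 9.53 and 10.08 after. All 6 granulosa arrays after LH thus stood above all theca arrays, whereas before LH all stood below them.

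The rise of P4HA3 was 5.80 ± 0.30 in membrane granulosa (55.9-fold, adjusted p = 5.07e-09, limma) and 6.24 ± 0.30 in antral granulosa (75.8-fold, adjusted p = 1.55e-09). In theca it was 1.28 ± 0.30 (2.42-fold, adjusted p = 0.0243), and that call ended without cow A (0.135), cow C (0.0627) or cow D (0.136). The theca rise was the smaller one, with -4.53 ± 0.35 for theca less membrane granulosa (adjusted p = 4.82e-05, limma) and -4.97 ± 0.35 for theca less antral granulosa (adjusted p = 7.44e-06). The shares of probe sets called with a lower LH effect in theca were 4.57% and 5.60%. Its order of group means was antral granulosa after LH at 11.25 ± 0.25 (SD, n = 3), membrane granulosa after LH at 11.24 ± 0.48, theca after and before LH at 9.82 ± 0.27 and 8.54 ± 0.61, and membrane and antral granulosa before LH at 5.43 ± 0.36 and 5.01 ± 0.25. The first 2 of that order did not differ beyond their spread, nor did the last 2. Before LH P4HA3 was higher in theca than in membrane granulosa by 3.11 ± 0.25, and after LH lower, at -1.42 (adjusted p = 0.00147, limma).

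LOX and LOXL4, a pair of lysyl oxidases, parted in their response. LOX was 6.65, 7.46 and 7.31 in theca before LH and 7.26, 7.12 and 7.34 after LH, a difference of 0.10 ± 0.34 with a 95% interval of -0.63 to 0.83. On the 12 granulosa arrays it lay between 4.40 and 6.13, and the highest of these was membrane granulosa of cow C. Below 4.62 lay 1 of 3 membrane granulosa arrays before LH and 2 of 3 in each other granulosa group. This limits what LOX can show in granulosa. LOX was not called in any LH effect, and its level in theca exceeded membrane granulosa by 2.42 ± 0.33 before and 2.17 ± 0.33 after LH. The mean log2 signal of the 9 measured of 10 endothelial markers, whose cells the theca holds, was 6.69 to 7.22 in theca and 4.30 to 4.90 in membrane granulosa before LH. In that comparison 8 of 9 endothelial markers were called higher in theca, as were 8 of 9 smooth muscle, 8 of 12 fibroblast and 7 of 10 leukocyte markers. Called lower were 1 smooth muscle and 1 fibroblast marker. The share of all probe sets called higher was 15.4%. The part of these cell types in the LOX difference was not tested.

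LOXL4 in theca was 5.85, 7.32 and 6.69 before LH and 10.86, 11.53 and 10.17 after LH, without overlap. It rose by 4.23 ± 0.47 (18.8-fold, adjusted p = 9.14e-05, limma). In membrane granulosa it was 4.82, 5.45 and 5.34 before and 6.68, 6.89 and 8.07 after, a rise of 2.01 ± 0.47 (4.02-fold, adjusted p = 0.0054). In antral granulosa it was 5.09, 4.86 and 4.05 before and 5.30, 5.49 and 6.49 after, and the difference of 1.09 ± 0.47 did not pass (adjusted p = 0.114).

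The LOXL4 rise in theca exceeded that in antral granulosa by 3.14 ± 0.63 (adjusted p = 0.00603, limma) and that in membrane granulosa by 2.22 ± 0.63 (adjusted p = 0.0469). The shares of all probe sets called with a higher LH effect in theca were 5.64% and 4.56%. The difference from membrane granulosa held only without cow C, at 2.99 (0.00357), and was lost when each other cow was left out (adjusted p from 0.0803 to 0.21). Of the collagens, COL1A2 was called with a smaller LH effect in theca than in antral granulosa, at -2.54 ± 0.76 (adjusted p = 0.0496), and lost that call without any one cow (0.0529 to 0.141). The value ran from -3.10 without cow A to -1.47 without cow C. COL3A1 missed the threshold there (adjusted p = 0.0503) and passed it without cow F (0.0488). No size is given for it, since its antral arrays before LH all lay below 4.62. No gene was called in the difference of LH effects between antral and membrane granulosa, where limma called 0% of all probe sets and 2 of the 8 genes and 2236 of all probe sets had an unadjusted p under 0.05.

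**Figure D4:**
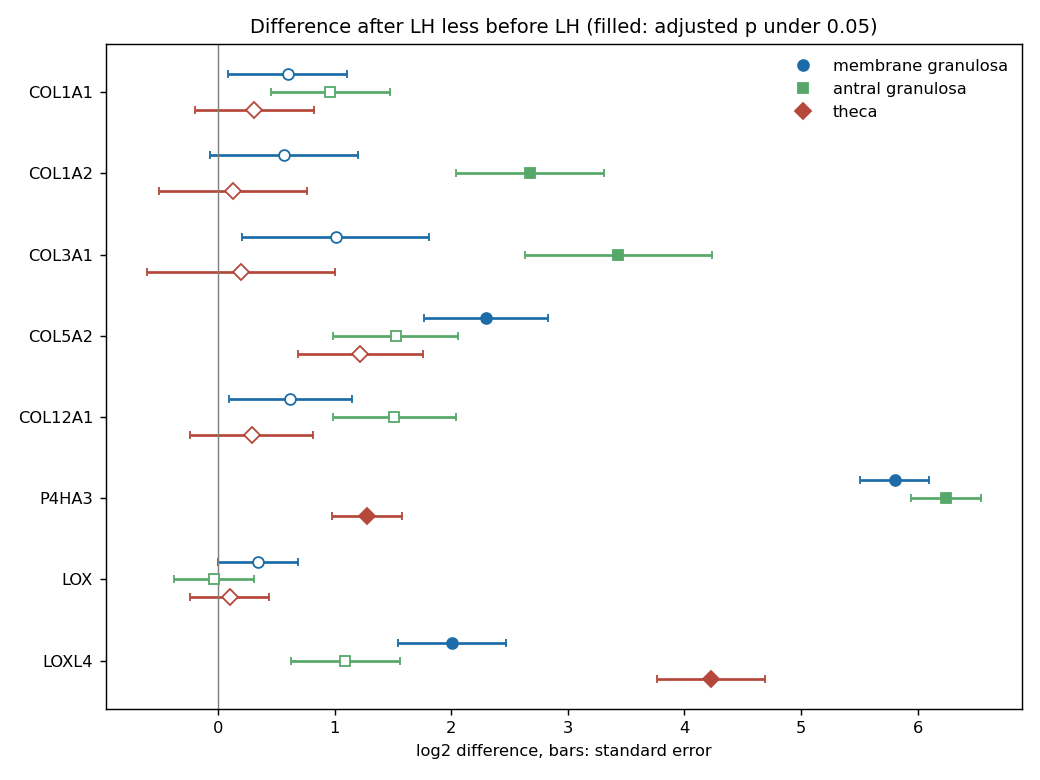
Log2 difference after less before LH (x axis) for the 8 genes (y axis) in 3 populations, with bars of 1 standard error and filled points at an adjusted p under 0.05. P4HA3 lay at 5.80 and 6.24 in the granulosa populations and 1.28 in theca, whereas LOXL4 lay at 4.23 in theca. The fitted antral values of COL3A1 and COL12A1 rest on arrays below 4.62 before LH.

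The remaining probe sets were set beside the main ones. The 2 of COL1A2 correlated at 0.995 over the 18 arrays, those of COL3A1 at 0.997, and the second of COL12A1 with its main one at 0.965. The second probe set of COL1A1 spanned 3.62 to 4.83 and the last of COL12A1 4.06 to 4.67. These were the 2 of 13 probe sets with a mean below 4.62. The last of COL12A1 correlated at -0.502 with its main one.

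Group means of 4 of the 5 collagens followed 1 order. For COL1A1, COL1A2, COL3A1 and COL12A1, theca after LH was highest, then theca before LH, membrane granulosa after and before LH, and antral granulosa after and before LH. In theca the 2 times did not differ beyond their spread for these 4, nor did the 2 times in membrane granulosa. Membrane granulosa before LH and antral granulosa after LH overlapped for COL1A1 and COL3A1. The LH difference in antral granulosa was not called for COL1A1 or COL12A1 in the main fit. For COL5A2 the order was theca after LH at 10.74 ± 0.06 (SD, n = 3), theca before LH at 9.52 ± 0.36, membrane granulosa after LH at 8.04 ± 1.47, antral granulosa after LH at 5.99 ± 0.84, and membrane and antral granulosa before LH at 5.74 ± 0.33 and 4.46 ± 0.30. For LOXL4 it was theca after LH at 10.85 ± 0.68, membrane granulosa after LH at 7.21 ± 0.75, theca before LH at 6.62 ± 0.74, and then antral granulosa after LH, membrane granulosa before LH and antral granulosa before LH at 5.76, 5.20 and 4.67. The LOXL4 arrays of membrane granulosa after LH and of theca before LH overlapped, as did the last 3 groups with their neighbours. For COL5A2, theca before LH overlapped membrane granulosa after LH, and antral granulosa after LH overlapped membrane granulosa before LH. Deviations of single arrays from their group mean, a description over 18 arrays that share cows, correlated at 0.963 between COL1A2 and COL3A1 and at 0.845 between COL1A2 and COL12A1. The same correlations of P4HA3 with the other genes ran from -0.272 to 0.257.

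Of 58 other genes of collagen synthesis and turnover, 39 were measured. Among them 7 were called higher and 8 lower after LH in membrane granulosa, 5 and 9 in antral granulosa, and 4 and none in theca. Of all probe sets, 10.0%, 10.3% and 1.79% were called higher in membrane granulosa, antral granulosa and theca. The shares called lower were 10.9%, 12.2% and 2.12%. The median LH difference of the 39 was -0.04, 0.02 and 0.03, against -0.0492, -0.00818 and -0.00253 over all probe sets.

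Procollagen folding and modification held 17 of the 39 genes. In each granulosa population 2 rose and 6 fell, and in theca 1 rose. FKBP14, a prolyl isomerase of the endoplasmic reticulum, fell by 2.62 in membrane granulosa (adjusted p = 1.67e-06, limma) and by 3.06 in antral granulosa (2.64e-07), and had -0.32 in theca (0.622). SERPINH1, the collagen chaperone HSP47, fell by 0.97 in membrane granulosa (3e-04) and by 1.29 in antral granulosa (1.71e-05). TMEM38B, a cation channel of the endoplasmic reticulum, fell by 1.89 in membrane granulosa (1.76e-05) and by 1.88 in antral granulosa (1.47e-05). COLGALT2, a collagen galactosyltransferase, rose by 2.40 in membrane granulosa (0.000179), by 2.90 in antral granulosa (2.33e-05) and by 1.59 in theca (0.0218).

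The other subunits of prolyl 4-hydroxylase, singled out after their values were seen, did not rise with P4HA3. In antral granulosa P4HA1 fell by 0.91 (adjusted p = 0.0153, limma), P4HA2 by 0.78 (0.00299) and P4HB, the beta subunit, by 0.63 (0.0379). In membrane granulosa P4HA2 fell by 0.54 (0.0336) and P4HB by 0.65 (0.0353), and P4HA1 had -0.50 (0.184). In theca the 3 lay between 0.01 and 0.02.

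Procollagen cleavage held 3 measured genes of 8 listed. PCOLCE2, an enhancer of the protease that removes the C-terminal propeptide, rose by 4.43 ± 0.37 in membrane granulosa (adjusted p = 6.28e-07, limma), 5.43 ± 0.37 in antral granulosa (6.53e-08) and 2.93 ± 0.37 in theca (0.000283). PCOLCE, its paralogue, fell by 1.99 in membrane granulosa (5.9e-05) and by 2.78 in antral granulosa (1.58e-06). The LH effect of PCOLCE2 in theca less that in membrane granulosa was -1.498 ± 0.36 (0.021).

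Of the other lysyl oxidases, LOXL1 was the 1 measured of 3. It was higher in theca than in membrane granulosa before LH by 3.96 ± 0.44 (adjusted p = 3.09e-05, limma) and was not called in any LH effect. Other collagens had 7 of 11 measured, of which 3 were called higher in theca than in membrane granulosa before LH: COL6A1 by 3.08, COL27A1 by 1.46 and COL5A3 by at least 1.03. After LH COL11A1 fell by 0.38 in antral granulosa (0.0413) and no other was called in an LH effect.

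Collagen breakdown held 8 measured genes of 9. MRC2, an endocytic receptor for collagen, fell by 1.33 in membrane granulosa (adjusted p = 0.000796, limma) and by 1.56 in antral granulosa (0.000173). CTSK, the collagen-cutting protease cathepsin K, rose by 1.52 in membrane granulosa (0.0036). MMP1, interstitial collagenase, rose by at least 0.20 in membrane granulosa (0.00761) and at least 0.22 in antral granulosa (0.0162). MMP14, a membrane-anchored collagenase, rose by 0.82 in theca (0.0133). Of the receptors, 3 of 7 were measured. ITGB1, the shared beta chain of collagen-binding integrins, rose by 0.32 in membrane (0.0325) and 0.80 in antral granulosa (2.42e-05), and ITGA2 rose in theca by at least 0.82 (0.0186).

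**Figure D5:**
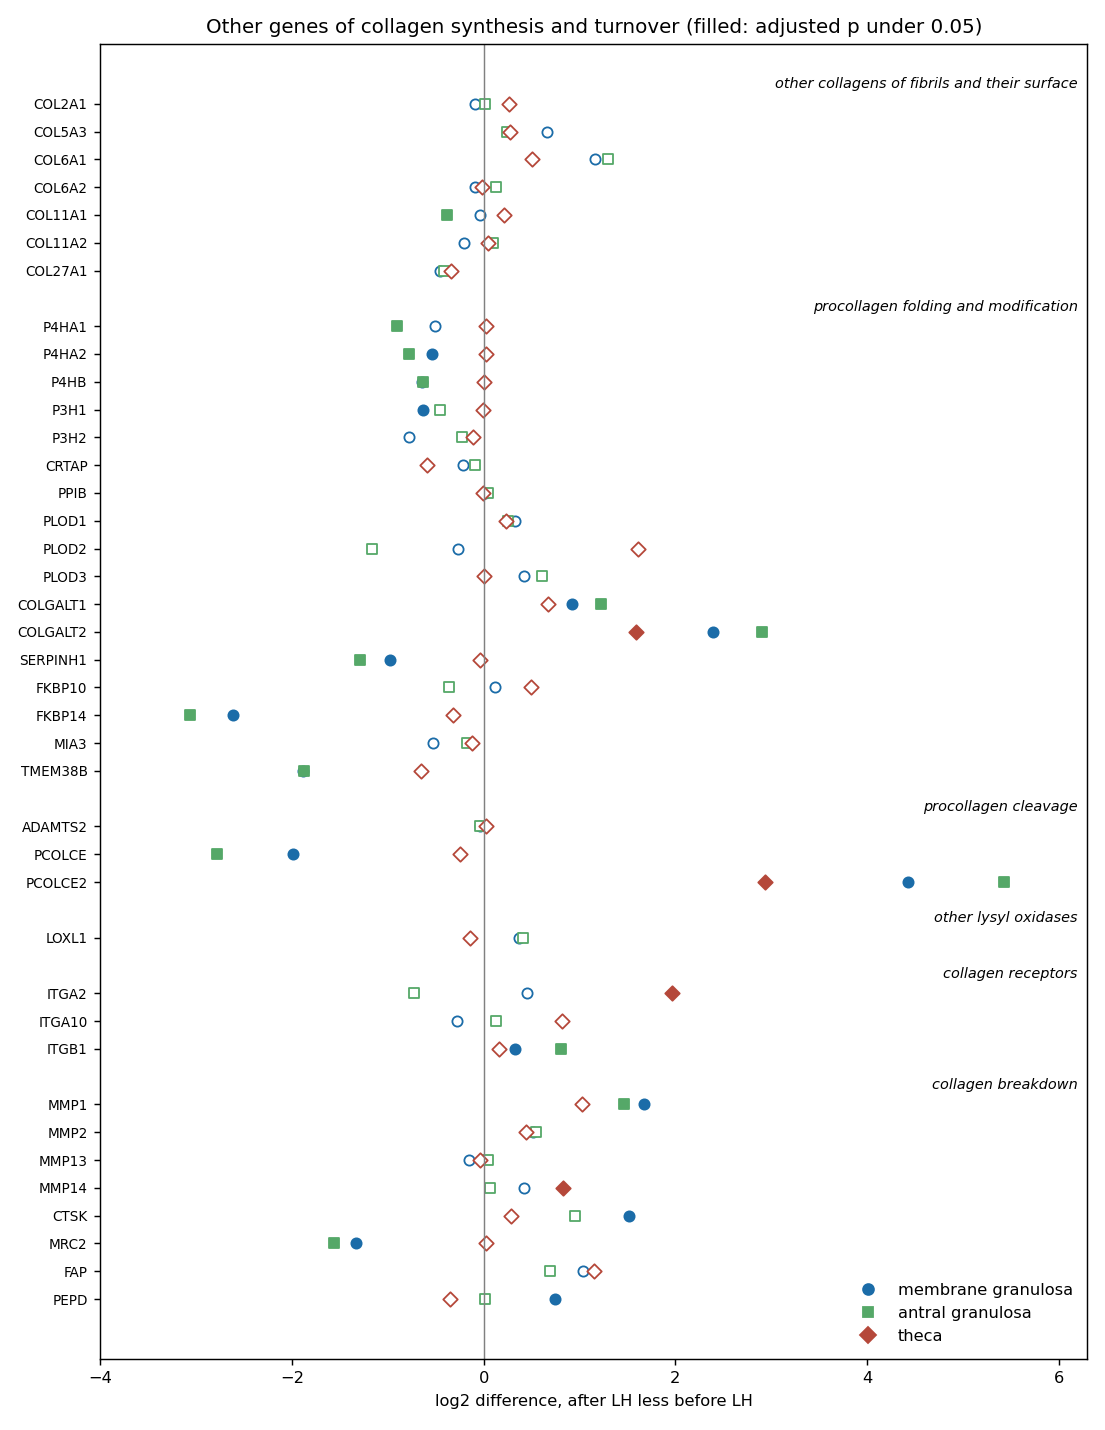
Log2 difference after less before LH (x axis) for the 39 measured other genes of collagen synthesis and turnover (y axis, by list), with a symbol per population and filled symbols at an adjusted p under 0.05. PCOLCE2 was called in all 3 populations, and FKBP14 fell by 2.62 and 3.06 in the granulosa populations.

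Genes whose pattern was most like that of a member were sought among 3172 genes, by Pearson r over the 18 arrays, which share cows. COL1A1 was nearest to NID1 (0.984) and MMP2 (0.984), COL12A1 to ACTA2 (0.989), and COL1A2 and COL3A1 to MGP (0.985 and 0.988). COL5A2 was nearest to YBX3 (0.975). P4HA3 was nearest to TNC (0.981), AFAP1 (0.98) and ARHGAP24 (0.978). LOX was nearest to SOX18 (0.984) and ROBO4 (0.975), both known from endothelium, and LOXL4 to PLBD1 (0.949).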

How the data were processed

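The authors deposited log2 signals made by RMA in Partek 6.5, per the submitters' processing notes. The steps around it are not given in the sources used here. Arrays are not counts, so the number of cows limits the precision. Of 24128 probe sets, 112 controls were left out and 24016 tested with limma 3.58.1 in R 4.3.3, with Benjamini-Hochberg adjustment and a threshold of 0.05. Array medians were 5.74 to 5.86. LH effects were fitted on 6 group means, and within-cow contrasts and differences of LH effects with the cow as a block. Same-cow arrays deviated together in 17 of 18 pairs (r from -0.02 to 0.69), so cows pair the populations. Of the probe sets, 13292 had 1 symbol, 86 several and 10638 none. All genes of the rule are named, with up to 3 called genes per list in the LH effects and in theca against membrane granulosa before LH, and the 3 genes most like each member, some of which are left unprinted. Members, lists and markers were chosen with earlier results of these data known. The fits were tested on simulated data. The alternatives were quantile normalization, median centring, the dimmest 33.33% left out, eBayes with trend and robust, only the arrays compared, the mean of a gene's probe sets, and each cow left out. For LH effects the replicate number was also used as a block, and for the other comparisons the cow block was left out.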

Additional observations from a re-analysis of the deposited data

Results flagged for a closer look

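The LH effect differed between populations for 3 of the genes, by the test of the difference itself in limma. For P4HA3 the effect in theca less that in membrane granulosa was -4.53 (adjusted p = 4.82e-05), and less that in antral granulosa -4.97 (7.44e-06). Both calls held without each cow in turn. For LOXL4 these differences were 2.22 (0.0469) and 3.14 (0.00603). The first was lost when any cow other than C was left out, and the second held without each cow. For COL1A2 the effect in theca less that in antral granulosa was -2.54 (0.0496), and it was lost without each cow, with values from -3.10 to -1.47.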

How the results depend on the processing

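Over 8 genes and 12 comparisons, 1180 of 1248 values under an alternative kept their direction, where called, and their side of the threshold. None of the 1248 reversed, 42 lost a call and 26 gained one. The count in antral granulosa after LH was 3, and 5 with the dimmest 33.33% left out, where fewer probe sets are tested, and 6 with only the arrays compared. The count for the LH effect in theca less membrane granulosa was 2, and 1 with trend and robust, with only the arrays compared and without the cow block. The P4HA3 rise in theca lost its call with only the arrays compared (adjusted p = 0.113), as did COL5A2 in membrane granulosa (0.0669). The cause was not tested.

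Replicate numbers do not pair cows before and after LH. Deviations of same-numbered arrays of a population from their group means correlated at -0.17 to 0.23, with 2 of 9 over 0.1. With the replicate block, the LH counts were 3 in membrane granulosa, 5 in antral granulosa and 2 in theca. Without the cow block the LOXL4 difference of theca less membrane granulosa (adjusted p = 0.0756, limma) and the COL1A2 difference of theca less antral granulosa (0.125) lost their calls. So did COL1A2 in theca against membrane granulosa after LH (0.0564) and COL5A2 in antral against membrane granulosa after LH (0.07). No other call of the 8 genes was lost or gained.

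With each cow left out, the LH counts were 3 in membrane granulosa, 3 to 5 in antral granulosa and 1 to 2 in theca. They were 5 to 8 for theca against membrane granulosa before LH and 6 to 8 after. Against antral granulosa they were 7 to 8 before LH and 8 after. For antral against membrane granulosa they were 2 to 5 before LH and 0 to 4 after, while calls over all probe sets were 83 to 478 before LH (426 with all cows) and 0 to 600 after (721). In theca the calls over all probe sets after LH were 439 to 1016 (941). For the differences of LH effects they were 1 to 2 for theca less membrane granulosa and 2 to 3 for theca less antral granulosa, and 0 for antral less membrane granulosa, where up to 20 of all probe sets were called.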
